A study of Mus musculus with 6 samples.

Results

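The mouse mitochondrial chromosome encodes 37 genes, and all 37 were found in the deposited table of 55487 genes by the prefix mt- of their symbols. They comprise 13 protein-coding genes, whose transcripts are called messages here, 2 ribosomal RNA genes and 22 transfer RNA genes. Their levels were compared in the terminal ileum, where the small intestine ends, taken from C57BL/6 mice aged 9 days, in 3 libraries of animals with necrotizing enterocolitis (NEC), an inflammatory and necrotic disease of the newborn bowel, and 3 libraries labelled control. The labels of both groups carry the same treatment description, which is hyperosmolar formula by gavage, 5% O2 for 10 min at a time, 3 times daily on 4 days, and lipopolysaccharide by mouth (4 mg/kg daily, postnatal days 6 and 7), so how the control mice were fed and handled is not stated. Neither do the labels say whether each library is a separate animal, and the p-values therefore measure the spread between libraries, part of which may be technical. The bulk tissue holds all layers of the bowel wall, and in such samples fewer cells of a type and less RNA per cell cannot be told apart.

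The mitochondrial chromosome is a small circle with no introns and almost no spacers. Each of its strands is copied as a long polycistronic transcript by a dedicated polymerase, and the tRNAs, which lie between most of the other genes, are cut out so that the rRNAs and messages are released. The messages encode core subunits of respiratory complexes I, III and IV and of the ATP synthase, complex V, and all other subunits, as well as every protein that copies, cuts, stabilises and translates mitochondrial RNA, are imported from nuclear genes. In the small intestine, absorptive enterocytes are rich in mitochondria, which power nutrient transport.

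In ileum with NEC, 9 of the 13 mitochondrial messages and 13 of the 22 mitochondrial tRNAs were called higher than in control ileum, against 7.69% of all tested genes, none was called lower, and neither rRNA was called. The 13 messages together came to 17618, 13879 and 15338 FPKM in NEC and 9526, 10897 and 11139.8 FPKM in control, so that the lowest NEC library lay above the highest control library. FPKM counts sequenced fragments per kilobase of transcript and scales them to the mapped fragments of the library. The 37 genes accounted for 3.45, 4.11 and 3.69% in NEC and 2.57, 3.05 and 2.79% in control of each library's summed FPKM, and for 2.32, 1.70 and 1.72% in NEC and 1.09, 1.26 and 1.32% in control of its mapped fragments. Among these fragments the messages contributed 259033 to 309228 per library in NEC and 151725 to 186682 in control, the rRNAs 23008 to 82964 in NEC and 18841 to 27070 in control and the tRNAs 252 to 356 in NEC and 120 to 141 in control. Sums over the 37 genes were not tested.

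Library properties bear on these sums. The number of mapped fragments, estimated from the smallest steps of the values, was 16.9, 18.2 and 18.7 M in NEC 1, 2 and 3, against 15.6, 15.2 and 16.2 M in the controls. The 7SL RNA gene Rn7s1 took 42.7, 31.3 and 32.2% in NEC and 29.7, 27.3 and 31.4% in control of all FPKM, and with it left out of the total the 37 genes held 6.02, 5.99 and 5.44% in NEC and 3.66, 4.20 and 4.07% in control. Against nuclear protein-coding genes alone, their share was 12.7, 9.26 and 9.53% in NEC and 6.52, 7.30 and 7.59% in control, highest in NEC 1, and the groups stayed apart on each of these 3 totals. The median gene of the 15806 tested was itself 0.26 lower in NEC on the log2 scale. NEC 1 also stood apart in cell type markers: its 7 smooth muscle markers summed to 146 FPKM, while NEC 2 and 3 lay at 690.4 and 684 FPKM and the controls between 784 and 929 FPKM.

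Each gene was then compared with limma on log2(FPKM + 1), with Benjamini-Hochberg adjustment over all 15806 tested genes, two-sided, and a gene was called at an adjusted p under 0.05. All 37 genes passed the filter of a mean of at least 1 FPKM. Of the 13 messages, 9 were called higher in NEC and 0 lower, and of all tested genes 7.69% were called higher and 30.6% lower, 38.2% in all. The message changes had a median of 0.76 and ran between 0.40 and 0.90 on the log2 scale, 12 of them with an unadjusted p under 0.05, beside the median of -0.26 over all genes. In 12 of the 13 messages every NEC value exceeded every control value, which held for 11.8% of all tested genes, while every NEC value was below every control value for 47.3%. All statistics quoted for single genes below are from this fit unless stated otherwise.

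**Figure D1:**
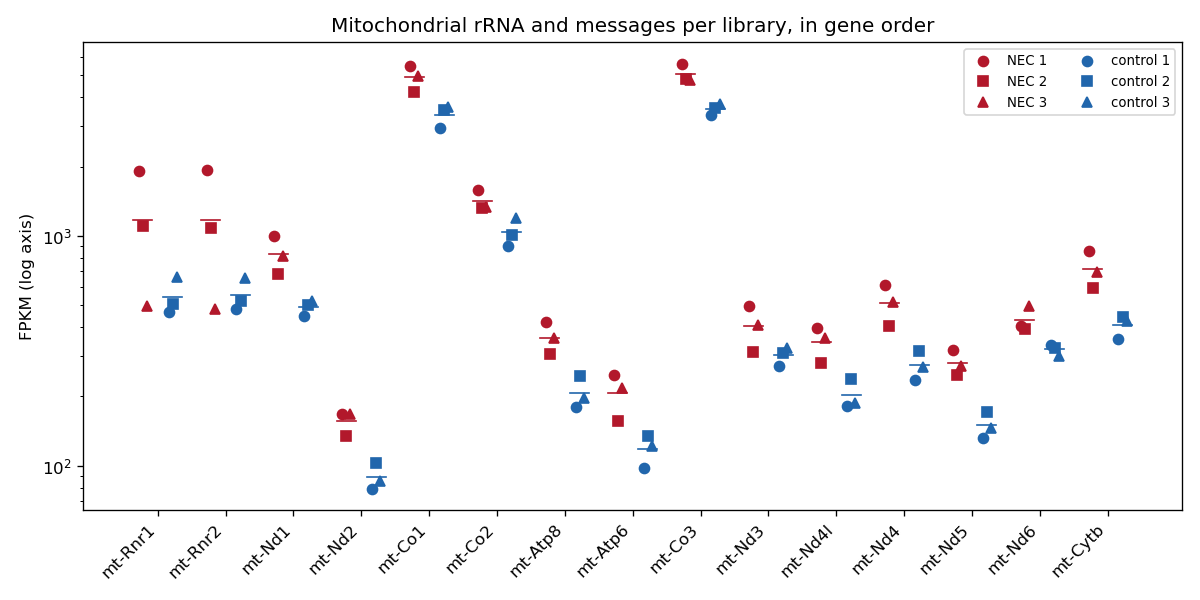
Levels of the 2 rRNAs and 13 messages in FPKM (log axis), one point per library with NEC in red left of control in blue, a line at each group mean, and the messages in gene order. The NEC points lie above the control points for every message but mt-Nd3, for which NEC 2 (311 FPKM) falls among the controls (271 to 326 FPKM).

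Complex I, the NADH dehydrogenase that feeds electrons into the chain, has 7 subunits encoded here. mt-Nd5, a proton-pumping membrane subunit (chromosome M, 11742 to 13565, plus strand), was at 319, 247 and 272 FPKM in NEC, against 133, 171 and 146 FPKM in control. Its values were therefore well separated, and with a log2 change of 0.90 (SE 0.15, adjusted p = 0.00888) it had the largest change of the 13 and was called in all 17 alternative analyses. mt-Nd4, a further pumping subunit (10167 to 11544), had 612, 407 and 514 FPKM in NEC, against 237, 316 and 268 FPKM in control, a change of 0.89 (SE 0.19, adjusted p = 0.0159). mt-Nd2, the least abundant message in both groups (3914 to 4951), was at 168, 135 and 168 FPKM in NEC, against 79.3, 103 and 86.0 FPKM in control, a change of 0.81 (SE 0.14, adjusted p = 0.0106). Both showed non-overlapping groups, with NEC 2 the lowest of the NEC libraries. mt-Nd1, which helps to form the quinone-binding site (2751 to 3707), reached 1003, 685 and 817 FPKM in NEC, against 448, 500.3 and 519.7 FPKM in control and rose by 0.75 (SE 0.17, adjusted p = 0.0184). mt-Nd4l, a short subunit (9877 to 10173), had 398, 279.6 and 360.1 FPKM in NEC, against 182, 239 and 188 FPKM in control and rose by 0.76 (SE 0.18, adjusted p = 0.0200).

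The other complex I messages had smaller estimates. mt-Nd3, a small subunit at the junction of the membrane and peripheral arms (9459 to 9806), was at 494, 311 and 409.8 FPKM in NEC, against 271, 309 and 326 FPKM in control. NEC 2 lay within the control range, and the change of 0.40 (SE 0.19, adjusted p = 0.130) did not pass. mt-Nd6 is the only message of the light strand, that is, transcribed in the opposite direction to the other 12 (13552 to 14070, minus strand). Its level was 407, 392 and 497 FPKM in NEC, against 337, 324 and 301 FPKM in control, with every NEC library above every control and the smallest change of the called messages, 0.42 (SE 0.13, adjusted p = 0.0426). Expressed as a percentage of the 12 heavy-strand messages, mt-Nd6 stood at 2.36, 2.91 and 3.35% in NEC and 3.66, 3.06 and 2.78% in control, and the groups overlapped. Its call was kept in 9 of 17 alternatives and missed, among others, with totals without Rn7s1 (adjusted p = 0.212) and with no filter on low values (adjusted p = 0.0752). mt-Nd6 shares its last bases with the end of mt-Nd5 on the other strand, 14 bases in all, and since the strand setting of the counting was not given in the sources used here, its fragments cannot be told apart from antisense heavy-strand RNA.

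mt-Cytb, cytochrome b of complex III and the only subunit of that complex encoded here (14145 to 15288), had 862, 595 and 694 FPKM in NEC, against 356, 445 and 424 FPKM in control. The groups were apart, with a change of 0.80 (SE 0.17, adjusted p = 0.0173). The 3 complex IV messages, which encode the catalytic core of cytochrome c oxidase, were the most abundant of the 13 per length. mt-Co1, the haem-carrying subunit (5328 to 6872), was at 5495, 4227 and 4955 FPKM in NEC, against 2943, 3512 and 3641 FPKM in control. mt-Co2, which receives electrons from cytochrome c (7013 to 7696), was at 1583, 1324 and 1332 FPKM in NEC, against 905, 1009 and 1194 FPKM in control. mt-Co3, the third core subunit (8607 to 9390), was at 5609, 4816 and 4743 FPKM in NEC, against 3358, 3588 and 3726 FPKM in control. All 3 were higher in every NEC library than in any control, yet their changes of 0.54 (SE 0.20, adjusted p = 0.0677) for mt-Co1, 0.45 (SE 0.16, adjusted p = 0.0660) for mt-Co2 and 0.50 (SE 0.18, adjusted p = 0.0603) for mt-Co3 missed the threshold.

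The ATP synthase messages mt-Atp8 and mt-Atp6 are made as 1 bicistronic RNA whose reading frames overlap. Over 43 bases (GRCm38 chrM:7927-7969, plus strand) a fragment can belong to either gene, and these bases are 21.1% of mt-Atp8. The last 90 bases of mt-Atp8 (chrM:7880-7969) and the first 90 of mt-Atp6 (chrM:7927-8016) are shown 5′ to 3′ from GENCODE M21 because the shared run, in capitals, limits how far their levels are separate measurements.
mt-Atp8: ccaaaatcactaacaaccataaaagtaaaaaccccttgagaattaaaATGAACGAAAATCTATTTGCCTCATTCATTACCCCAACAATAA
mt-Atp6: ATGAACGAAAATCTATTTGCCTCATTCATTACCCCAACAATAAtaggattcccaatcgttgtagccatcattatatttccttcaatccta

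mt-Atp8, a small membrane subunit, was at 420.0, 305 and 358 FPKM in NEC, against 181, 246 and 198 FPKM in control, a change of 0.79 (SE 0.17, adjusted p = 0.0169). mt-Atp6, which forms the proton channel with the nuclear-encoded ring, was at 247, 156 and 217 FPKM in NEC, against 97.9, 135 and 122 FPKM in control, a change of 0.79 (SE 0.20, adjusted p = 0.0257). Both were called, and their 2 groups did not overlap. The second bicistronic pair, mt-Nd4l and mt-Nd4, shares 7 bases (chrM:10167-10173, plus strand), in capitals in the last 50 bases of mt-Nd4l (chrM:10124-10173) and the first 50 of mt-Nd4 (chrM:10167-10216).
mt-Nd4l: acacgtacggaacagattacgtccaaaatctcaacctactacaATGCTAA
mt-Nd4: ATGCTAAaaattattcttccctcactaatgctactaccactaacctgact

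The proportions of the complexes among the messages mostly overlapped between the groups. Complex IV messages made up 72.0, 74.7 and 71.9% in NEC and 75.6, 74.4 and 76.9% in control of the summed FPKM of the 13, with overlapping groups. Complex I messages made up 19.3, 17.7 and 19.8% in NEC and 17.7, 18.0 and 16.5% in control, and complex V messages 3.79, 3.32 and 3.75% in NEC and 2.93, 3.50 and 2.87% in control, again with overlap. The share of mt-Cytb was 4.89, 4.28 and 4.52% in NEC and 3.73, 4.09 and 3.81% in control, the only complex whose groups were apart. To set the tRNAs and rRNAs against the messages, each library was scaled so that its 13 messages summed to the same FPKM, and all genes were fitted again. On that scale 0 of the 13 messages were called in either direction, with changes of -0.16 to 0.33 and none with an unadjusted p under 0.05, and 2.08% of all tested genes were called higher and 69.4% lower, 71.5% in all. The sum includes the message itself, and mt-Co1 and mt-Co3 alone made up 63.0, 65.2 and 63.2% in NEC and 66.1, 65.1 and 66.1% in control of it, so that their changes are held near 0 and those of the messages on this scale are no test against the rest of the chromosome.

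How many messages passed changed when single libraries were left out, while all 13 changes stayed above 0 whichever library it was. Without control 1 only mt-Nd5 was called, the adjusted p of the other 8 being 0.0502 to 0.102. Without control 2, 5 were called, and mt-Nd1, mt-Nd6, mt-Cytb and mt-Atp6 missed at 0.0578 to 0.126. Without control 3, mt-Nd5 and mt-Nd2 were called and the other 7 missed at 0.0530 to 0.136. Leaving out NEC 2 ended the call of mt-Nd6 (0.0567) and brought in mt-Nd3 (0.0473), and leaving out NEC 3 ended those of mt-Nd6 and mt-Atp6 (0.0525 to 0.0611). Without NEC 1, the library that stood apart, the same 9 messages were called, with a median change of 0.65. Of all genes, 3.20, 3.03 and 4.24% were called higher without control 1, 2 and 3, against 7.69% with all libraries. Without NEC 1, 2 and 3 these shares were 9.77, 4.97 and 7.84%. Totals without Rn7s1 and the absence of a filter each ended the call of mt-Nd6 and left 8. A filter at a mean of 5 FPKM added mt-Co1 and mt-Co3, for 11, and a fit without the mean-variance trend added all 3 complex IV messages, for 12, so their calls depend on these choices as well as on the scaling. Of all genes, 4.05% were called higher with totals without Rn7s1, 3.17% without a filter, 13.5% with the filter at 5 FPKM and 7.49% without the trend. TMM scaling, which places the median gene at 0.0036, put the median message at 1.11 and added mt-Co1, mt-Co2 and mt-Co3 to the calls, while 16.7% of all genes were called higher. Quantile normalization turned mt-Co1 to -0.10 (adjusted p = 0.530) and mt-Co3 to -0.27 (adjusted p = 0.222), and called 9 messages, beside 13.9% of all genes. The direction of mt-Co1 and mt-Co3, the most abundant messages, was thus not kept under quantile normalization. With TMM, totals without Rn7s1 and nuclear protein-coding totals, the lowest change of any message was 0.74, 0.33 and 0.37.

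Cell type markers moved between the groups as well, beside 7.69% of all tested genes called higher and 30.6% called lower. Summed levels of 10 enterocyte markers were 11967 to 14715 FPKM in NEC and 3218 to 4038 FPKM in control, and 9 of the 10 were called higher. The 7 smooth muscle markers summed to 146 to 690.4 FPKM in NEC and 784 to 929 FPKM in control, with 0 of 7 called and none at an unadjusted p under 0.05. The 9 markers of striated muscle and heart, a mitochondria-rich tissue, were 15.3 to 29.8 FPKM in NEC and 6.21 to 7.80 FPKM in control, with 1 of 3 tested called higher. Erythroid markers, 7 in number, came to 233 to 252 FPKM in NEC and 547 to 813 FPKM in control, with 4 of 5 tested called lower, and the 7 enteric neuron and glia markers to 9.88 to 20.1 FPKM in NEC and 34.2 to 41.7 FPKM in control, with 4 of 4 tested called lower. The 8 immune markers overlapped at 67.0 to 78.5 FPKM in NEC and 38.0 to 91.1 FPKM in control, with 1 of 6 tested called lower. For liver and pancreas, 8 markers summed to 18.9 to 43.5 FPKM in NEC and 82.9 to 101 FPKM in control, with 2 of 2 tested called lower and Prss2 and Pnlip at 0 in all libraries. The 4 brown fat markers were at 0.157 to 0.837 FPKM in NEC and 0.503 to 0.950 FPKM in control, with Elovl3 at 0 and none tested. The enterocyte and striated muscle sums thus separated the groups in the same direction as the messages, and the smooth muscle, erythroid, neuronal and liver and pancreas sums in the opposite one. Of all tested genes taken singly, 11.8% separated the groups with NEC higher and 47.3% with NEC lower. The part of cell composition in the mitochondrial levels was not tested.

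The 2 ribosomal RNAs, which form the core of the mitochondrial ribosome, lie first on the heavy-strand transcript. mt-Rnr1, the small-subunit rRNA (70 to 1024), was at 1918, 1100.3 and 496 FPKM in NEC, against 468, 505 and 659 FPKM in control. mt-Rnr2, the large-subunit rRNA (1094 to 2675), was at 1941, 1082 and 480.0 FPKM in NEC, against 480.0, 519 and 658 FPKM in control. Both followed the same order over the libraries, with NEC 1 the highest and NEC 3 within or near the control range, so that the groups overlapped. Neither change passed, and neither had an unadjusted p under 0.05, at 0.91 (SE 0.46, adjusted p = 0.156) for mt-Rnr1 and 0.87 (SE 0.48, adjusted p = 0.182) for mt-Rnr2. The ratio of mt-Rnr2 to mt-Rnr1 was almost the same everywhere, 1.01, 0.984 and 0.968 in NEC and 1.03, 1.03 and 0.999 in control. The rRNAs did not follow the messages library by library: rRNA over message FPKM was 0.219, 0.157 and 0.0636 in NEC and 0.0995, 0.0940 and 0.118 in control, highest in NEC 1 and lowest in NEC 3. Without NEC 3 both rRNAs were called, mt-Rnr1 at 1.43 (adjusted p = 0.0154) and mt-Rnr2 at 1.40 (adjusted p = 0.0163). Without NEC 1 the changes were 0.46 (adjusted p = 0.338) and 0.40 (adjusted p = 0.402). The sources used here do not state whether rRNA was depleted before sequencing. The share of Rn7s1 given above was highest in the same library, NEC 1, and its part was not tested.

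**Figure D2:**
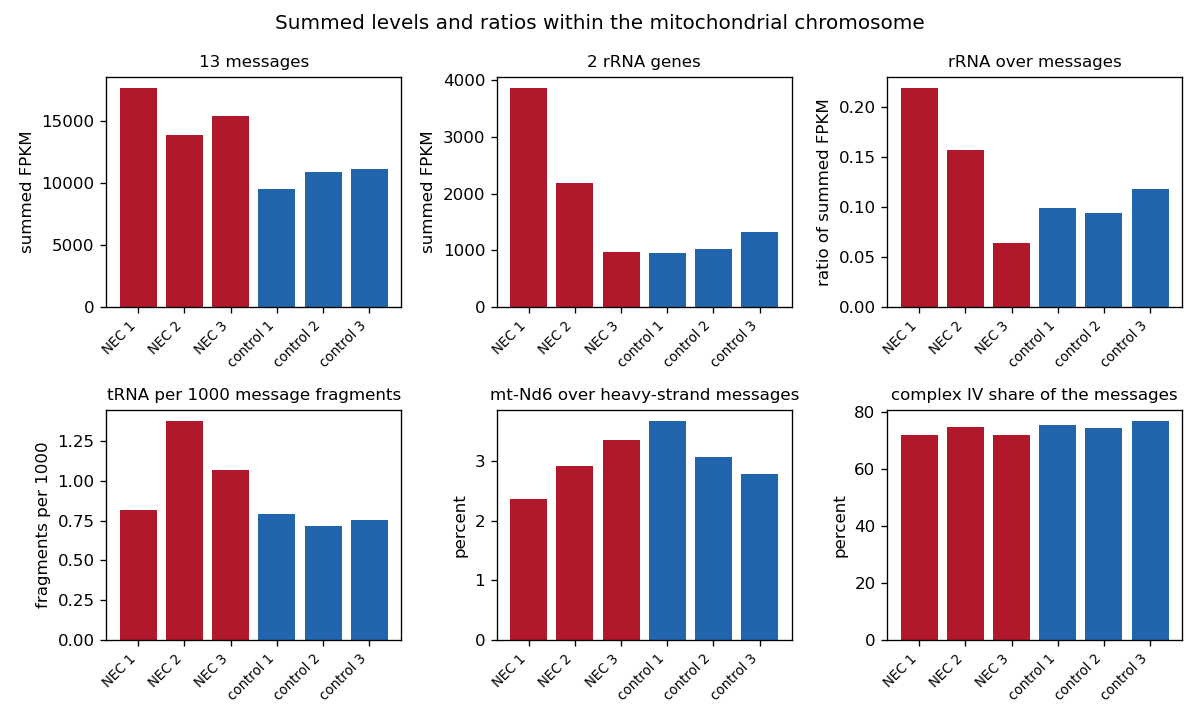
Bars, one per NEC (red) and control (blue) library, give the summed FPKM of the messages and of the rRNAs, the ratio of rRNA to message FPKM, tRNA fragments per 1000 message fragments, and mt-Nd6 and complex IV as percentages. The message sum is higher in all NEC libraries, and the rRNA sum spans 976 to 3859 FPKM in NEC against 948 to 1317 FPKM in control.

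The 22 tRNA genes deliver the amino acids for mitochondrial translation and mark the cutting sites of the transcript. Of these, 13 were called higher in NEC and 0 lower, beside 7.69% and 30.6% of all tested genes. The median change was 0.93 over the 22, and 14 had an unadjusted p under 0.05. In the 13 that were called, every NEC value exceeded every control value, which held for 11.8% of all tested genes. The other 9 overlapped. Over the 22, the fragment totals of 252, 356 and 318 in NEC and 120, 123 and 141 in control are small. The genes are only 59 to 75 bases long, shorter than common library fragments. The levels of these genes are therefore uncertain, since how a fragment reaching into a neighbouring message was assigned is not given in the sources used here. Per 1000 message fragments, the tRNAs had 0.815, 1.37 and 1.07 in NEC and 0.791, 0.718 and 0.755 in control, with NEC 1 only slightly above the controls.

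Of the 22, the 7 tRNA genes with the largest log2 changes in the fit on the deposited scale are shown 5′ to 3′ with the anticodon in capitals (GENCODE M21, GRCm38), together with mt-Tg as the tRNA with the lowest change relative to the messages. The run after mt-Cytb holds mt-Tt (threonine, chrM:15289-15355, plus strand) and, on the other strand, mt-Tp (proline, chrM:15356-15422, minus strand). The run between mt-Nd4 and mt-Nd5 holds mt-Th (histidine, chrM:11546-11612), mt-Ts2 (serine, chrM:11613-11671) and mt-Tl2 (leucine, chrM:11671-11741), all on the plus strand. mt-Tk (lysine, chrM:7700-7764) lies between mt-Co2 and mt-Atp8, mt-Tr (arginine, chrM:9808-9875) between mt-Nd3 and mt-Nd4l, and mt-Tg (glycine, chrM:9391-9458) between mt-Co3 and mt-Nd3, all on the plus strand.
mt-Tt: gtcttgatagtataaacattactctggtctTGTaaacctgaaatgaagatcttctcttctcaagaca
mt-Tp: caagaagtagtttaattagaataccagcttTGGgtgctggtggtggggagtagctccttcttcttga
mt-Th: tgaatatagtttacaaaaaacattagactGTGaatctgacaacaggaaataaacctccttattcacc
mt-Ts2: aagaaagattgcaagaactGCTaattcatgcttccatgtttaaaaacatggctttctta
mt-Tl2: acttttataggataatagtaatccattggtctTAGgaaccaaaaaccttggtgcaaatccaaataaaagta
mt-Tk: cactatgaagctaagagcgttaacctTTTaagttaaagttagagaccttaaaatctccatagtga
mt-Tr: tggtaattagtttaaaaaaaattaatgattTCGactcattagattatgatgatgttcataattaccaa
mt-Tg: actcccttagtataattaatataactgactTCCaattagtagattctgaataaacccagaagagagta

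mt-Tt, the threonine tRNA, had 9, 17 and 13 fragments in NEC and 2, 3 and 3 in control. In FPKM these were 7.94, 14.0 and 10.4 in NEC, against 1.91, 2.94 and 2.76 in control, a change of 1.71 (SE 0.21, adjusted p = 0.00512). Its neighbour mt-Tp had 24, 31 and 34 fragments in NEC and 8, 3 and 11 in control, again without overlap. At 21.2, 25.5 and 27.2 FPKM in NEC, against 7.64, 2.94 and 10.1 FPKM in control, mt-Tp changed by 1.82 (SE 0.37, adjusted p = 0.0143), the largest log2 change of the 37 genes in this fit. This rank depends on the scale. By the ratio of group mean FPKM, mt-Tt (4.24) and mt-Ts2 (3.80) exceeded mt-Tp (3.56). With a pseudocount of 0.01 the largest tRNA change was 2.87, that of mt-Tf. The 3 contiguous tRNAs before mt-Nd5 each had under 10 fragments per library. mt-Th, the histidine tRNA, had 8, 4 and 6 fragments in NEC and 1, 1 and 3 in control. mt-Ts2, which reads one set of serine codons, had 8, 5 and 4 fragments in NEC and 1, 1 and 2 in control. mt-Tl2, which reads one set of leucine codons, had 8, 8 and 6 fragments in NEC and 2, 2 and 2 in control. All 3 were higher in every NEC library, by 1.26 (SE 0.33, adjusted p = 0.0265) for mt-Th, 1.37 (SE 0.28, adjusted p = 0.0144) for mt-Ts2 and 1.27 (SE 0.14, adjusted p = 0.00414) for mt-Tl2. mt-Tk, the lysine tRNA, had 9, 25 and 23 fragments in NEC and 4, 5 and 5 in control, a change of 1.52 (SE 0.33, adjusted p = 0.0169), and NEC 1 was well below NEC 2 and 3. In the controls, mt-Tl2 had the same small fragment number in each library, so its p rests on a spread below that of fragment counting.

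The most abundant tRNA entry was mt-Tl1, the second leucine tRNA, which lies between mt-Rnr2 and mt-Nd1. It had 68, 79 and 65 fragments in NEC and 27, 35 and 34 in control, and at 53.6, 58.0 and 46.4 FPKM in NEC, against 23.0, 30.7 and 28.0 FPKM in control it changed by 0.93 (SE 0.14, adjusted p = 0.00737). The tRNAs that separate mt-Nd2 and mt-Co1 included mt-Tw (tryptophan), with 19, 35 and 31 fragments in NEC and 8, 12 and 10 in control and a change of 1.20 (SE 0.23, adjusted p = 0.0124). From the same cluster, mt-Tn (asparagine, minus strand) had 4, 9 and 6 fragments in NEC and 2, 2 and 2 in control, a change of 1.04 (SE 0.22, adjusted p = 0.0156), and its controls were equal as well. mt-Tr (arginine) had 13, 18 and 16 fragments in NEC and 8, 4 and 3 in control, a change of 1.36 (SE 0.29, adjusted p = 0.0171). Called too were mt-Tq (glutamine, minus strand) at 1.03 (SE 0.23, adjusted p = 0.0175), mt-Te (glutamate, minus strand) at 0.90 (SE 0.22, adjusted p = 0.0223) and mt-Tm (methionine) at 0.55 (SE 0.15, adjusted p = 0.0287). mt-Tq, mt-Te and mt-Tm had 12 to 25 fragments per NEC library and 5 to 13 per control library. The 9 tRNAs that did not pass were mt-Tf, mt-Tv, mt-Ti, mt-Ta, mt-Tc, mt-Ty, mt-Ts1, mt-Td and mt-Tg, with changes of -0.0057 to 0.93. mt-Tf (phenylalanine) and mt-Tv (valine), which flank mt-Rnr1, had 0 to 3 fragments in every library. mt-Tf was at 0 in control 2, which at 3 fragments allows up to 2.90 FPKM, and mt-Tv was at 0 in NEC 3, which allows up to 2.33 FPKM. These limits cover counting error only.

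tRNA fragments of the light strand came to 63, 113 and 99 in NEC and 36, 26 and 40 in control, and those of the heavy strand to 189, 243 and 219 in NEC and 84, 97 and 101 in control, so the totals of either strand were higher in every NEC library. Without a strand setting, light-strand tRNAs too cannot be told apart from antisense heavy-strand RNA.

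After scaling to the 13 messages, 9 tRNAs were still called higher and 1 lower, beside the 2.08% and 69.4% of all tested genes. mt-Tt was higher by 1.26 (SE 0.25, adjusted p = 0.00211), mt-Tp by 1.30 (SE 0.35, adjusted p = 0.00777), mt-Tk by 1.03 (SE 0.34, adjusted p = 0.0182) and mt-Ts2 by 0.98 (SE 0.24, adjusted p = 0.00471). mt-Th was higher by 0.87 (SE 0.27, adjusted p = 0.0146), mt-Tr by 0.87 (SE 0.33, adjusted p = 0.0334) and mt-Tl2 by 0.85 (SE 0.19, adjusted p = 0.00346). mt-Tw changed by 0.68 (SE 0.27, adjusted p = 0.0397) and mt-Tn by 0.64 (SE 0.26, adjusted p = 0.0450). mt-Tt, mt-Tp, mt-Ts2 and mt-Tl2 kept this call in all 11 alternatives of that fit. In 1 of these, libraries were scaled by the median deviation of the 13 messages, which gives each message equal weight. There 7 tRNAs were called higher and 1 lower, beside 1.52% and 77.1% of all genes. mt-Tw and mt-Tn were then lost (adjusted p = 0.0782 to 0.0938). The call lower was mt-Tg, with 10, 10 and 10 fragments in NEC and 8, 9 and 8 in control, so it was nearly level between the groups on the deposited scale, where it changed by 0.066 (SE 0.10, adjusted p = 0.628), and it changed by -0.44 (SE 0.18, adjusted p = 0.0495) against the messages, beside the median of -0.69 that all genes had on that scale.

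The tRNA calls also changed when single libraries were left out. On the deposited scale 5 tRNAs were called without control 1 and 5 without control 2, the lost ones reaching adjusted p of 0.0516 to 0.0891 and 0.0504 to 0.0906. In both cases mt-Tk, mt-Ts2, mt-Th, mt-Te, mt-Tn, mt-Tm and mt-Tq were lost, with mt-Tw lost without control 1 and mt-Tr without control 2. Without control 3, mt-Tk, mt-Tn and mt-Tm were lost (0.0521 to 0.0753). Leaving out NEC 1 ended the call of mt-Th (0.0522) and brought in mt-Ta and mt-Ty. Leaving out NEC 2 ended those of mt-Tr, mt-Te and mt-Tm (0.0513 to 0.0633), and leaving out NEC 3 that of mt-Tm (0.0580) while mt-Tv, left with no empty NEC library, was called at 0.46 (adjusted p = 0.0252). mt-Tl1, mt-Tl2, mt-Tt and mt-Tp stayed called with any single library left out. On the same scale, 3.20, 3.03 and 4.24% of all genes were called higher without control 1, 2 and 3. Without NEC 1, 2 and 3 these shares were 9.77, 4.97 and 7.84%, against 7.69% with all libraries. On the scale of the messages, 14, 5 and 8 tRNAs were called higher without NEC 1, 2 and 3, and 5, 6 and 6 without control 1, 2 and 3. Of all genes, 2.60, 1.54 and 2.43% were called higher without NEC 1, 2 and 3, and 1.78, 1.54 and 1.59% without control 1, 2 and 3. mt-Tw and mt-Tn were lost without NEC 2, NEC 3, control 1 and control 3, mt-Tn also without control 2, mt-Tr without NEC 2, control 2 and control 3, mt-Tk without NEC 2 and control 1, and mt-Th without control 1 and 2. mt-Tg was lost without NEC 3 and without any of the controls (0.0752 to 0.197).

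**Figure D3:**
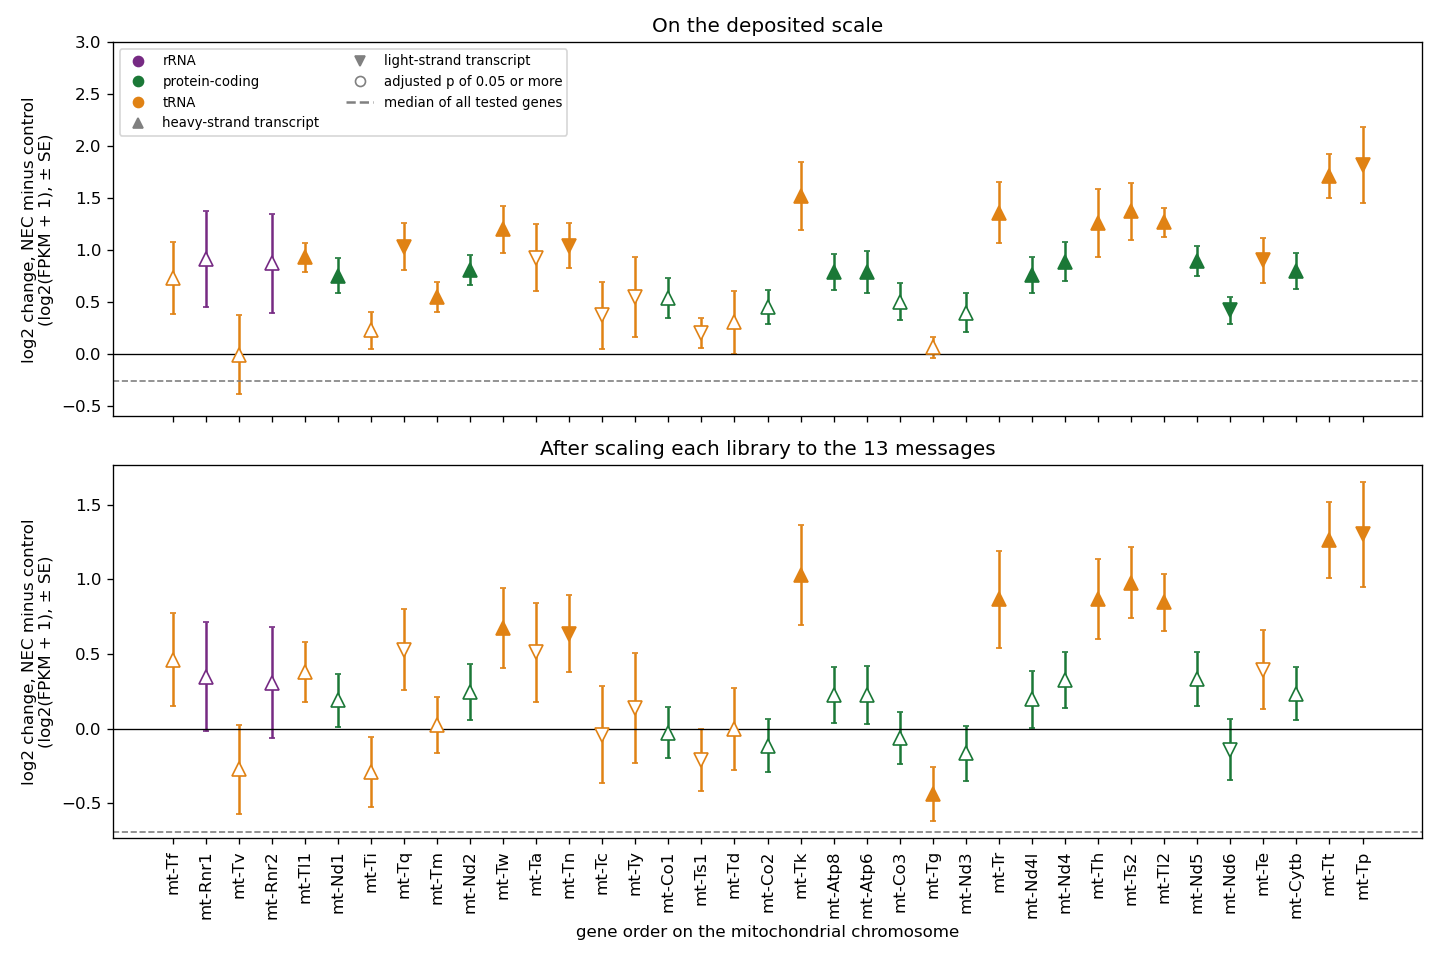
Log2 change, NEC minus control, of the 37 genes in their order along the mitochondrial chromosome, with bars of 1 SE, on the deposited scale (upper panel) and after scaling to the 13 messages (lower panel). Filled symbols were called, downward triangles are transcribed in the opposite direction, and the dashed line is the median of all tested genes. Messages sit between 0.40 and 0.90 on the deposited scale, and the tRNAs mt-Tt and mt-Tp after mt-Cytb reach 1.71 and 1.82.

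Parts of the mitochondrial chromosome also exist as copies in nuclear chromosomes, and 8 annotated nuclear transcripts matched a message at 97% identity or more. Of these, 7 lie side by side on chromosome 1 (24611535 to 24616197, minus strand, GRCm38) and 1, Gm13340, lies on chromosome 2 (22588103 to 22589647) with 97.6% identity to mt-Co1 over 1545 bases. Gm10925 matched mt-Atp6 over 678 bases without a mismatch, and Gm28661 (mt-Co2, 681 bases), Gm28437 (mt-Co3, 783 bases), Gm28439 (mt-Nd4, 876 bases) and Gm10222 (mt-Nd4l, 294 bases) were identical over these bases as well. Gm28438 differed from mt-Nd3 by 1 substitution in 345 bases, T3C, and Gm29216 from mt-Co1 by 1 in 483 bases, A1066T, counted from 1 at the first base of the message. The stretches around these bases show how little separates a nuclear from a mitochondrial fragment, with the differing base in capitals: mt-Nd3 (chrM:9459-9491, plus strand) above Gm28438 (chr1:24613087-24613119, minus strand), and mt-Co1 (chrM:6390-6423, plus strand) above Gm29216 (chr1:24616155-24616188, minus strand).
mt-Nd3: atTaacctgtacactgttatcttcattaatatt
Gm28438: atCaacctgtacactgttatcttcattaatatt
mt-Co1: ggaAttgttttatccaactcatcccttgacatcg
Gm29216: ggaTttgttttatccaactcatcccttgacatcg

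These copies carried fragments in every library. Gm10925 was at 221, 152 and 159 FPKM in NEC, against 75.3, 111 and 99.4 FPKM in control, and its fragments equalled 89.0, 96.9 and 72.8% in NEC and 76.6, 82.0 and 80.9% in control of those assigned to mt-Atp6. For mt-Co2 the figure was 26.2, 27.7 and 25.4% in NEC and 25.7, 25.3 and 26.2% in control, and for mt-Co3 it was 17.3% to 21.3% over the 6 libraries. Gm10925 thus held nearly as many fragments as mt-Atp6 itself, whereas the copies of mt-Co2 and mt-Co3 held far fewer than their messages. Gm28438 held 24.7, 24.2 and 21.8% in NEC and 24.4, 20.7 and 26.6% in control of the fragments of mt-Nd3. For mt-Nd4 and mt-Nd4l the copies held 12.3% to 15.9% and 14.2% to 22.3% over the 6 libraries, and for mt-Co1 each of the 2 copies held 1.73% to 2.28%. The levels of mt-Atp6, mt-Co1, mt-Co2, mt-Co3, mt-Nd3, mt-Nd4 and mt-Nd4l are accordingly uncertain, as fragments identical between a message and its copy cannot be assigned by sequence. Only annotated nuclear transcripts were searched. Other genes between mt-Co1 and mt-Nd4, namely mt-Atp8, mt-Ts1, mt-Td, mt-Tk, mt-Tg and mt-Tr, may therefore have unannotated copies in the same block on chromosome 1. Whether they do was not tested. The 7 copies on chromosome 1 summed to 2487, 2083 and 2043 FPKM in NEC and 1219, 1473 and 1583 FPKM in control, apart in the same direction as the messages. With the fragments of the copies added to their messages, an alternative chosen after seeing the data, all 9 calls were kept and none was gained, and mt-Atp6 changed by 0.84 (adjusted p = 0.0212) and mt-Nd4l by 0.81 (adjusted p = 0.0181).

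**Figure D4:**
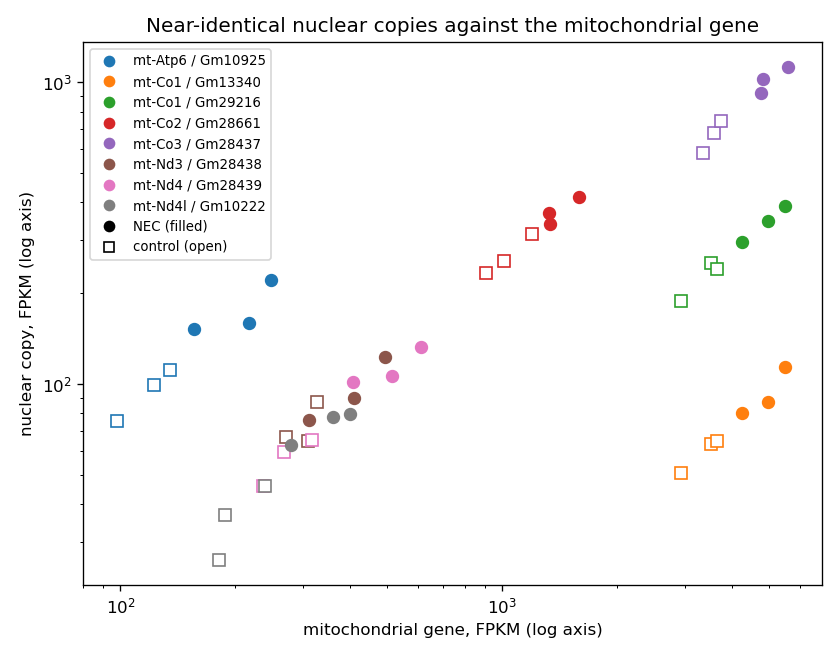
FPKM of 8 near-identical nuclear copies (vertical, log axis) against FPKM of the matching message (horizontal, log axis), one point per library, filled for NEC and open for control. The points of each copy follow their message, and Gm10925 lies at 75.3 to 221 FPKM where mt-Atp6 lies at 97.9 to 247 FPKM.

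Nuclear genes that serve mitochondria were counted from 12 lists. Tfam stands in 2 of them and was counted once in the totals. Over all lists 10 of 231 tested genes were called higher and 24 lower on the deposited scale, but 62 higher and 2 lower with TMM and 33 higher and 1 lower with quantile normalization, so the prevailing direction depends on the scaling. Of all tested genes, 7.69% and 30.6% were called higher and lower on the deposited scale, 16.7% and 14.2% with TMM, and 13.9% and 15.1% with quantile normalization. The counts that follow are for the deposited scale. Of 17 tested genes of mitochondrial transcription and replication, 0 were called higher, 4 lower and 13 did not pass, with a median of -0.23 (-0.0066 with TMM). Tfam, which packages the chromosome and starts its transcription, was at 3.29, 5.39 and 4.55 FPKM in NEC, against 7.40, 6.36 and 7.41 FPKM in control. Every NEC library was below every control, a change of -0.59 (SE 0.16, adjusted p = 0.0308). Ssbp1, the single-strand binding protein of replication, fell by 0.56 (SE 0.11, adjusted p = 0.0137). Mterf4, which takes part in ribosome assembly, fell by 0.55 (SE 0.12, adjusted p = 0.0169), and Mterf1b, a member of the same factor family, by 0.49 (SE 0.13, adjusted p = 0.0268). The polymerase gene Polrmt was at 2.38, 3.59 and 3.55 FPKM in NEC, against 3.50, 3.15 and 3.64 FPKM in control, with overlapping groups and a change of -0.10 (SE 0.15, adjusted p = 0.619). Tfb2m, the other initiation factor, had a change of -0.23 (SE 0.13, adjusted p = 0.213). With TMM, the calls of Ssbp1 and Mterf4 held (adjusted p = 0.0415 and 0.0435), while Tfam was at -0.30 (adjusted p = 0.120) and Mterf1b at -0.26 (adjusted p = 0.118). With quantile normalization 0 of the list were called lower, with Ssbp1 at -0.21 (adjusted p = 0.130) and Mterf4 at -0.17 (adjusted p = 0.197).

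Of 20 genes of RNA processing and stability, 0 were called higher and 1 lower (median -0.18, 0.082 with TMM). That 1 was Mtpap, the mitochondrial poly(A) polymerase, at 2.76, 3.37 and 3.15 FPKM in NEC, against 4.44, 4.74 and 4.44 FPKM in control, a fall of 0.44 (SE 0.10, adjusted p = 0.0206). Lrpprc and Slirp, partners in a complex that stabilises the messages, had changes of -0.044 (adjusted p = 0.808) and -0.22 (adjusted p = 0.162) and did not pass. Hsd17b10, a subunit of the enzyme that cuts the 5′ ends of the tRNAs, was at 5.23, 9.47 and 8.49 FPKM in NEC, against 11.6, 11.0 and 12.2 FPKM in control, and did not pass at -0.56 (adjusted p = 0.0613). Of 26 genes of tRNA maturation and charging, 0 were called higher and 6 lower (median -0.24, 0.010 with TMM). They included Qtrt1 at -0.54 (adjusted p = 0.0154) and Trit1 at -0.54 (adjusted p = 0.0234), which modify anticodon-loop bases, and the synthetase genes Ears2 at -0.45 (adjusted p = 0.0210) and Kars at -0.45 (adjusted p = 0.0200). Of 16 translation factors and insertases, 0 were called higher and 4 lower (median -0.26, -0.013 with TMM), namely Mtrf1, Mss51, Guf1 and Letmd1 at -0.55 (adjusted p = 0.0339), -0.39 (adjusted p = 0.0285), -0.44 (adjusted p = 0.0400) and -0.45 (adjusted p = 0.0267). At an unadjusted p under 0.05, 1 processing gene and 1 translation gene were higher and 7 and 8 lower. Of 80 mitochondrial ribosomal proteins, 0 were called higher, 7 lower and 73 did not pass (median -0.14, 0.12 with TMM). Mrps9 was at -0.49 (adjusted p = 0.0199), Mrps11 at -0.40 (adjusted p = 0.0234), Mrpl3 at -0.45 (adjusted p = 0.0236) and Mrpl44 at -0.49 (adjusted p = 0.0304).

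Among 15 regulators of mitochondrial biogenesis, 2 were called higher and 3 lower (median -0.20, 0.071 with TMM). Ppara, a nuclear receptor that drives fatty acid oxidation genes, was at 8.46, 5.95 and 6.36 FPKM in NEC, against 4.10, 3.94 and 4.71 FPKM in control, a change of 0.58 (SE 0.14, adjusted p = 0.0231). Esrra, an orphan nuclear receptor acting on oxidative genes, rose by 0.28 (SE 0.081, adjusted p = 0.0351), and Gabpa, an activator of respiratory chain genes, fell by 0.40 (SE 0.11, adjusted p = 0.0281). Of 19 genes of import and mitochondrial abundance, 3 were called higher and 0 lower (median -0.13, 0.15 with TMM). Cs, citrate synthase, often used as a measure of mitochondrial content, was at 124, 117 and 97.9 FPKM in NEC, against 49.8, 46.2 and 52.9 FPKM in control, and its change of 1.17 (SE 0.12, adjusted p = 0.00316) exceeded that of every message. Slc25a5, an ADP/ATP carrier, rose by 0.90 (SE 0.10, adjusted p = 0.00425) and Vdac2, an outer membrane channel, by 0.42 (SE 0.10, adjusted p = 0.0196). Tomm20, an import receptor, was at 11.3, 19.6 and 17.7 FPKM in NEC, against 22.3, 24.2 and 23.1 FPKM in control, and did not pass at -0.53 (adjusted p = 0.0697).

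The nuclear subunits of the respiratory complexes had medians of 0.048 to 0.14 on the deposited scale and 0.37 to 0.47 with TMM. Their calls depended on the scaling too. With TMM, 3 of 6 genes of complex I, 4 of 4 of complex II and 6 of 9 of complex III were called higher. For complexes IV and V these were 6 of 10 and 8 of 10, beside 16.7% of all tested genes. On the deposited scale, to which the following counts belong, 7.69% of all tested genes were called higher and 30.6% lower. Of complex I, 0 of 6 core subunits were called, and none had an unadjusted p under 0.05 (median 0.058). Complex II, which has no mitochondrially encoded subunit, had 1 of 4 called higher with a median of 0.14, Sdhd at 0.39 (adjusted p = 0.0242). Complex III had 1 of 9 with a median of 0.087, Uqcrq at 0.78 (adjusted p = 0.00618), and complex IV had 2 of 10 with a median of 0.048, Cox5a at 0.69 (adjusted p = 0.00697) and Cox6a1 at 0.36 (adjusted p = 0.0373). Complex V had 1 of 10 with a median of 0.081, Atp5d at 0.49 (adjusted p = 0.0266), and 0 were called lower in any of the complexes, where 1 gene, of complex IV, was lower at an unadjusted p under 0.05. The 10 and 24 calls over all 12 lists are 4.33% and 10.4% of their genes.

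**Figure D5:**
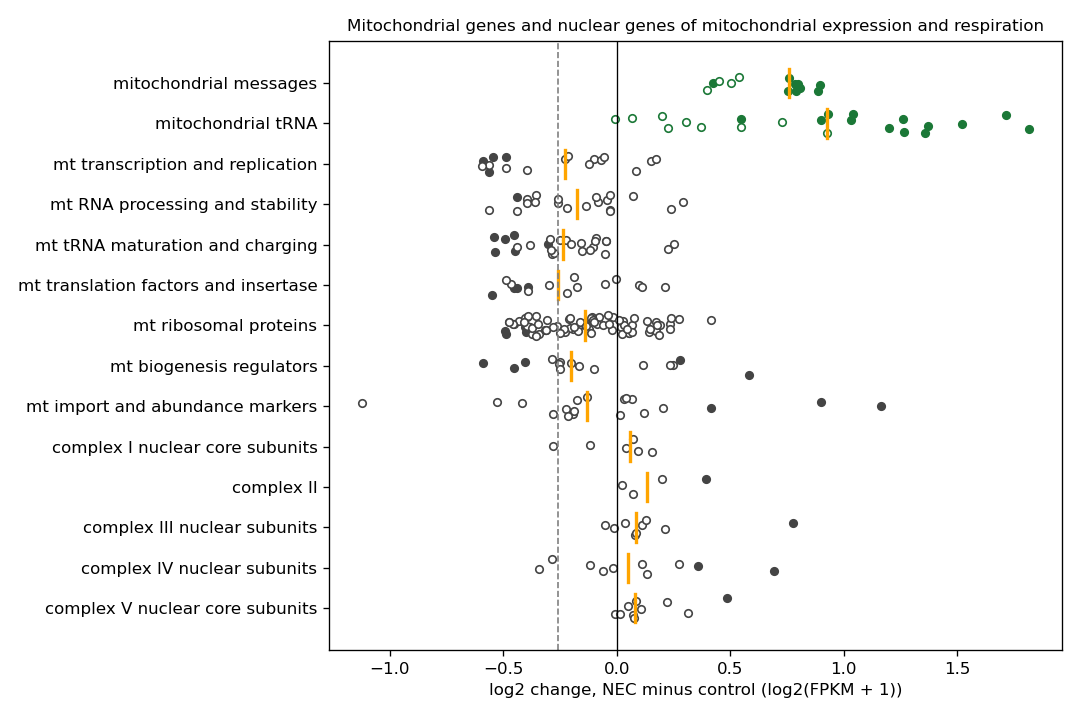
Log2 change, NEC minus control, of the 13 messages, the 22 tRNAs and the tested genes of 12 nuclear lists on the deposited scale, one point per gene (filled where called) with the median of each list in orange. The message median of 0.76 lies above the nuclear list medians, which range from -0.26 to 0.14, while the dashed line at -0.26 marks the median of all tested genes.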

How the data were processed

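RNA of 6 libraries, 3 labelled NEC and 3 labelled control, was measured by RNA-seq. Per the labels' protocols, column-purified RNA with an integrity number above 7 went into paired-end TruSeq libraries. HISAT2, SAMtools 1.3.1, Cuffdiff and build mm10 are named in the submitters' processing notes. The deposited table gives no unit, and its values were taken to be the FPKM that Cuffdiff gave the authors, since low values of single-transcript genes fall on steps of 1 fragment. Of these values under 100 fragments, 98.9% to 99.1% per library were whole within 0.01, which gave 15.2 to 18.7 M fragments per library and the fragment numbers of each gene. Columns beginning with N were read as NEC. The annotation, its handling of shared fragments and the strand setting are not given in the sources used here.

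Symbols, biotypes, coordinates and sequences came from GENCODE M21 (GRCm38), which matched 55141 of 55487 identifiers. limma 3.58.1 in R 4.3.3 was fitted with a mean-variance trend to log2(FPKM + 1) of 15806 genes averaging 1 FPKM or more, with group as the only term, and p-values were adjusted by Benjamini-Hochberg over all of them. The scale understates changes of low genes. The same fit was made after scaling libraries to the 13 messages. An exact permutation test of 3 against 3 cannot go below p = 0.1, so none was run. Nuclear copies were sought among annotated transcripts with BLAST+ 2.17.0, at 97% identity or more. Simulated NEC and control libraries of 15806 genes served to test the fit, which recovered 63% of log2 changes of 1 and 94% of changes of 2, with 5 false calls. Only 100 genes were changed at each size, all drawn from more abundant genes, so these shares do not cover low genes such as many tRNAs. The median SD of log2 levels within the deposited groups was 0.21 for NEC and 0.094 for control, so shares from simulation may not carry over. The 37 genes, the 12 nuclear lists, the 8 marker lists and the tests were chosen with earlier results of these data known. All messages, rRNAs and tRNAs are named, with up to 4 genes of smallest p per nuclear list and Tfam, Polrmt, Tfb2m, Lrpprc and Slirp.

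Alternatives were smaller pseudocounts (0.1 and 0.01), filters at no minimum and at 5 FPKM, scaling by TMM, by quantiles, by totals without Rn7s1 or by nuclear protein-coding totals, a block for the replicate number, a fit without trend, the addition of nuclear copies, chosen after seeing the data, and each library left out in turn.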

Additional observations from a re-analysis of the deposited data

How the results depend on the processing

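On the deposited scale the 13 messages and 2 rRNAs stayed above 0 in every alternative, apart from mt-Co1 and mt-Co3 under quantile normalization. The number of messages called higher, 9, ran from 1 to 9 with a library left out and from 6 to 12 otherwise. That of rRNAs, 0, ran from 0 to 2. The number of tRNAs, 13, ran from 5 to 14 with a library left out. It was 16 with TMM, 15 with quantile normalization and 9 of 11 tested with a mean of at least 5 FPKM. On the scale of the messages, tRNAs called higher, 9, ran from 5 to 14 and rRNAs from 0 to 2, and tRNAs called lower, 1, from 0 to 1. Without a filter 4 tRNAs were higher on that scale, and the 1 lower, mt-Tg, was 0 with a pseudocount of 0.1 and with the replicate block. Of the 12 nuclear lists, 10 genes were higher and 24 lower, against 62 and 2 with TMM, 33 and 1 with quantile normalization, and 5 and 3 with totals without Rn7s1. There were 14 lower without a filter, 5 with a mean of at least 5 FPKM and 46 with nuclear protein-coding totals. Without NEC 1, 2 and 3, 18, 6 and 8 were higher and 31, 10 and 41 lower, and without control 1, 2 and 3, 4, 4 and 5 were higher and 0, 0 and 3 lower. The share of all genes called lower moved as well. It was 20.2% with totals without Rn7s1, 15.3% without a filter, 25.1% with a mean of at least 5 FPKM and 36.7% with nuclear protein-coding totals. It was 33.5, 18.7 and 33.8% without NEC 1, 2 and 3, and 6.73, 5.9 and 12.7% without control 1, 2 and 3. The shares called higher with a library left out are given above. The log2 ratio of the share of all FPKM, 0.42, was 0.55 without Rn7s1. That of rRNA to messages, 0.33, ran from 0.84 without NEC 3 to -0.048 without NEC 1, so its direction rests on NEC 1. As means of log2 values, tRNA to messages fell to 0.20, against 0.51, and the shares of complexes I, III and IV were at 0.027, 0.12 and -0.18, against 0.12, 0.24 and -0.054. The change of mt-Tv, -0.0057, ran from -0.017 without control 3 to 0.46 without NEC 3 among the libraries left out, and was -0.60 and -1.63 with pseudocounts of 0.1 and 0.01. The cause of these differences between settings was not tested. With a library left out, the smaller number of libraries and the loss of that particular library cannot be told apart. Same-numbered NEC and control libraries did not deviate together (correlations of -0.051, -0.0074 and -0.074 for numbers 1, 2 and 3). These values give no sign of pairing by number, but 3 libraries per group cannot exclude it. With the replicate block, 6 messages, 0 rRNAs and 12 tRNAs were higher, mt-Nd6, mt-Nd4l, mt-Atp6 and mt-Tm being lost, and the nuclear lists had 6 higher and 5 lower, beside 5.42% higher and 20.4% lower of all genes. Depth limits the tRNAs most, whose fragments total 252 to 356 per library in NEC and 120 to 141 in control.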
